A study of Mus musculus with 5 samples.

Results

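RNA from CD71-selected cells of the spleens of mice bearing B16 melanoma was compared with RNA from CD71-selected cells of steady-state bone marrow. The comparison took 3 of the 5 libraries of the series, 2 from tumor spleens (tumor 1 and tumor 2) and 1 from control bone marrow, chosen by their labels and by no measured value. The control came from untreated C57BL/6 mice, and the tumor mice carried a subcutaneous B16 tumor, a transplantable melanoma line of C57BL/6 origin. The strain is written as C57BL/7 for tumor 1 and C57BL/8 for tumor 2 in the labels. The other 2 libraries came from spleens of C57BL/6 mice whose skin had been irradiated with UVB at 50 mJ/cm2, and served as a second group of spleens. Cells of all 5 libraries were purified with beads against CD71, the transferrin receptor, and libraries were made from polyA RNA. The 2 sides of the main comparison differ in organ as well as in the tumor, so the effects of spleen and tumor cannot be told apart in it. No ages are given, and nothing says that the tumor libraries came from separate mice, so the p-values speak only of how these libraries spread, a spread that may be technical.

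Red cell precursors take up iron through CD71, make heme and globin, divide a few times and lose the nucleus. In adult mice steady-state production takes place in the bone marrow, where precursors mature around macrophages in erythroblastic islands. Under anemia, inflammation or tumor growth the mouse spleen becomes a further site of production, driven by erythropoietin, glucocorticoids, stem cell factor and BMP signals. CD71 is also carried by other dividing cells, so bead selection can retain leukocytes.

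Reads in genes numbered 5694656 in the control, 5597803 in tumor 1 and 5489850 in tumor 2. Levels are counts per 1000000 reads (CPM) as deposited, in which 1 read was worth 0.174, 0.177 and 0.181 CPM, and a value at that level stands for 0 reads. The labelled cell type was checked on erythroid markers. Tfrc, which encodes CD71, was at 665 CPM in the control, 802 in tumor 1 and 716 in tumor 2. The regulator Klf1 was at 175, 215 and 190 CPM, and Alas2, which encodes the erythroid enzyme that starts heme synthesis, at 317, 305 and 317 CPM. Leukocyte RNA was present too. The summed level of 16 mature B cell markers was 1776 CPM in the control, 939 in tumor 1 and 2386 in tumor 2, and that of 18 macrophage markers was 4160, 1957 and 2853 CPM. The differences below are therefore those of a bulk sample, in which fewer cells of a type and less RNA per cell cannot be told apart. The 13 melanocyte and melanoma markers summed to 123 CPM in the control and 86.9 and 122 in the tumor libraries, most of it from Kit and Mitf, which blood cells also express. Tyr, Dct, Sox10, Slc45a2, Gpr143 and Oca2 were at 0 reads in all 3 libraries, and none of the 4 members tested was called by limma or edgeR (2 at an unadjusted p under 0.05). Of those, Mitf was at 25.99, 6.56 and 19.2 CPM, Pmel at 4.19, 1.60 and 1.63 CPM, and Mc1r at 0.698, 2.13 and 2.53 CPM.

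Of 15006 genes averaging at least 1 CPM over the 5 libraries, 569 (3.79%) differed between tumor spleen and control bone marrow at an adjusted p under 0.05 (limma-trend on log2(CPM + 1), Benjamini-Hochberg). Of these, 180 (1.2%) were higher and 389 (2.59%) lower in the tumor libraries, and the median log2 fold change over all genes tested was -0.011. The directions differed in kind. The genes called higher were mostly expressed in the marrow as well, with a median of 41.6 CPM in the control and a median log2 fold change of 1.25. Those called lower had a median log2 fold change of -2.84, and 212 of them were under 1 CPM in both tumor libraries. In all 569 genes both tumor libraries lay on the same side of the control. The gap between these libraries enters the test, so this largely follows from the calls. Over all genes tested both tumor libraries were above the control in 39.3% and both below it in 37.9%. An unadjusted p was under 0.05 in 24.5%. The calls rest on the spread of all 4 spleen libraries, since the control has none: with only the control and tumor libraries, and also without UVB 1 or without UVB 2, the limma count was 0 (unadjusted p was under 0.05 in 2077, 1998 and 1994 genes). Without tumor 1 or without tumor 2 the fit set 1 tumor library against 1 control. The only spread left was then that of the UVB libraries, so counts from such fits do not show how firm a call is.

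**Figure D1:**
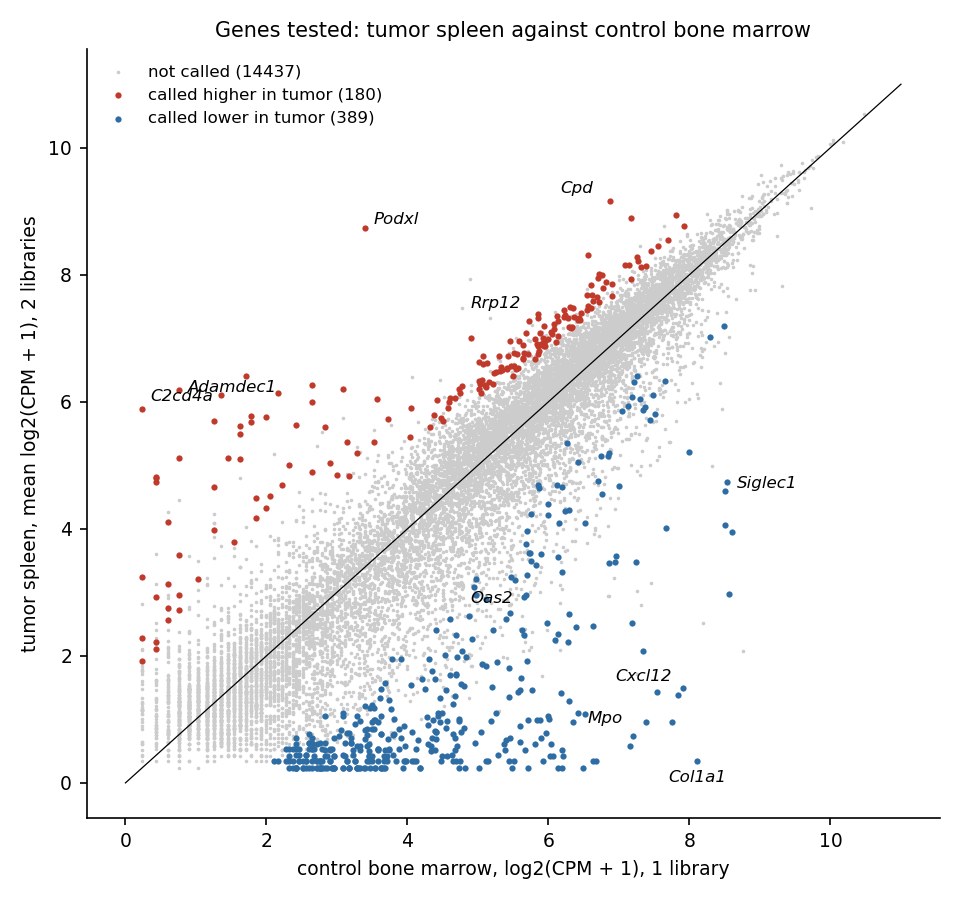
Mean log2(CPM + 1) of the 2 tumor libraries (vertical) against log2(CPM + 1) of the control library (horizontal), 1 point for each of the 15006 genes tested, with the line of equal level. The 180 genes called higher lie above the line, most of them at middle levels, while many of the 389 called lower lie along the bottom, near 0 reads in the tumor libraries.

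Of the 50 gene lists examined, ribosome biogenesis held the most genes called higher. Ribosomes are assembled in the nucleolus, where RNA polymerase I transcribes ribosomal RNA and a large set of processing factors trims, modifies and packs it. Of 30 such genes 16 rose and 0 fell, against 1.2% of all genes called higher. The list had a median log2 fold change of 0.88, and both tumor libraries were above the control in 30 of 30, against 39.3% of all genes. Rrp12, a factor in pre-ribosome maturation and export, was at 52.0 CPM in the control, 148 in tumor 1 and 160 in tumor 2, and rose by a log2 fold change of 1.55 (SE 0.14, adjusted p = 0.0226). The catalytic core of RNA polymerase I rose in both its large subunits. Polr1a went from 103 to 244 and 250 CPM (log2 fold change 1.25, SE 0.12, adjusted p = 0.0251), and Polr1b from 60.2 to 135 and 157 CPM (1.26, adjusted p = 0.0347). Both tumor libraries were about level with each other and well above the control in these genes.

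Factors of the small-subunit processome rose as well, with Utp20 at 107 CPM in the control and 242 and 269 in the tumor libraries, and Heatr1 at 141, 262 and 304 CPM. Nop2, a ribosomal RNA methyltransferase, was at 74.1, 153 and 176 CPM, and Gnl3, the nucleolar GTPase nucleostemin, at 84.4, 154 and 159 CPM. The abundant nucleolar proteins lay less far from the control: nucleolin (Ncl) was at 429, 593 and 610 CPM and nucleophosmin (Npm1) at 56.9, 80.9 and 94.2 CPM, and neither passed the test (adjusted p = 0.108 and 0.118). Myc, a transcription factor known to drive ribosome synthesis, was at 85.3 CPM in the control and 154 and 163 in the tumor libraries, just short of the threshold (log2 fold change 0.89, adjusted p = 0.0643). On the mean log2(CPM + 1) scale the list was at 6.25 in the control, 7.10 and 7.16 in the tumor libraries, and 6.06 and 6.08 in the UVB libraries. The tumor libraries were thus close to each other in this list. The part that the mix of cells had in its levels was not tested. The number of its genes called depended on the setting, from 2 at a mean of at least 5 CPM and 3 with edgeR to 21 with no filter on low values. It was 0 in the fit of 3 libraries. The median lay between 0.85 and 0.92 in these settings and with tumor 1 or tumor 2 left out.

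**Figure D2:**
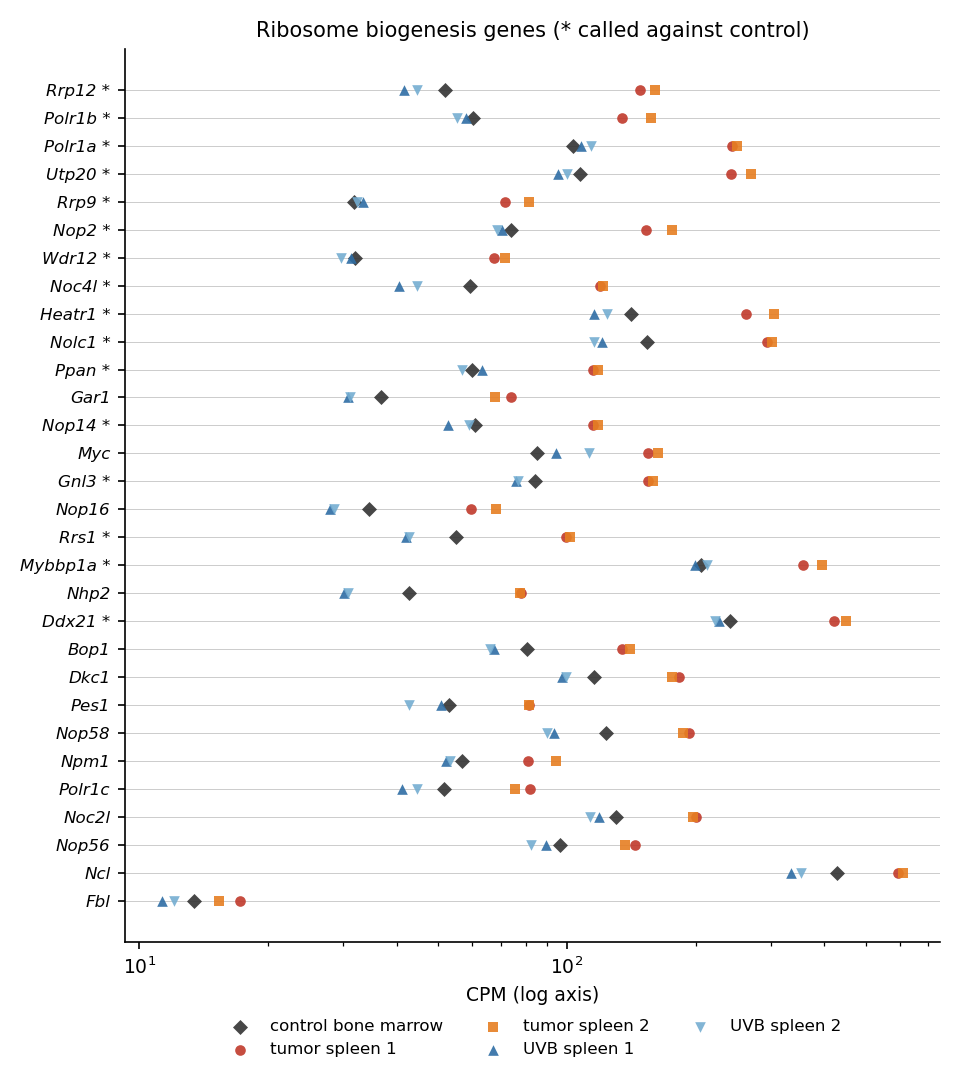
Level (CPM, log axis) of the 30 ribosome biogenesis genes in each of the 5 libraries, ordered by the log2 fold change of tumor against control, with stars at the 16 called genes. Both tumor libraries lie to the right of the control in every row, with Rrp12 at 52.0 against 148 and 160 CPM at the top.

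Other lists of growth genes held fewer calls. Among 28 genes of nucleotide, serine and one-carbon synthesis 5 rose and 1 fell (median log2 fold change 0.63), against 1.2% and 2.59% of all genes. Cad, which encodes the enzyme that starts pyrimidine synthesis, went from 224 CPM to 491 in each tumor library (log2 fold change 1.13, SE 0.13, adjusted p = 0.0309). Ppat, the committed enzyme of purine synthesis, went from 108 to 230 and 213 CPM, and Mthfd1, which supplies folate-bound carbon units, from 174 to 331 in both. Atic and Ctps, late enzymes of the purine and pyrimidine pathways, also rose. Impdh1, an enzyme of guanine nucleotide synthesis, fell from 162 to 52.0 and 63.7 CPM. The 5 increases became 0 with edgeR or at a mean of at least 5 CPM. With tumor 1 or tumor 2 left out the median was 0.59 or 0.65. In the lists for making proteins and for respiration the members lay mostly on one side. Against 39.3% of all genes, both tumor libraries exceeded the control in 28 of 28 mitochondrial ribosomal protein genes (median 0.53, 18 at an unadjusted p under 0.05), 20 of 20 aminoacyl tRNA synthetase genes (0.51, 16 at that p), 31 of 31 oxidative phosphorylation genes (0.23, 6 at that p) and 32 of 35 cytosolic ribosomal protein genes (0.27, 4 at that p). The last 2 shares, 6 of 31 and 4 of 35, are below the 24.5% of all genes at that p, and limma and edgeR called 0 in each of these 4 lists. Of 18 heat shock chaperone genes 1 rose, the co-chaperone gene Bag3, at 19.0 CPM in the control and 49.7 and 46.1 in the tumor libraries, which edgeR did not call. In that list both tumor libraries exceeded the control in 16 of 18 genes (median 0.39), and 11 had an unadjusted p under 0.05. Cell cycle genes had the smallest medians of these lists, 0.21 for 32 DNA replication genes and 0.00 for 30 mitosis genes. In both lists 0 genes were called by limma, by edgeR or at an unadjusted p under 0.05. Both tumor libraries still exceeded the control in 22 of 32 DNA replication genes, against 5 of 30 mitosis genes and 39.3% of all genes.

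The largest single increases were in genes that marrow cells hardly expressed. Podxl, which encodes the sialomucin podocalyxin and is a known target of erythropoietin in mouse erythroid cells, was at 9.59 CPM in the control, 433 in tumor 1 and 416 in tumor 2 (log2 fold change 5.33, SE 0.25, adjusted p = 0.0171). C2cd4a (chromosome 9, 67830489 to 67832330 on GRCm38), a C2 domain gene, had 0 reads in the control and 55.5 and 60.8 CPM in the tumor libraries, at least 111-fold higher against a floor of 3 reads. Hs6st2, a heparan sulfate sulfotransferase gene, went from 1.57 to 69.4 and 66.0 CPM (log2 fold change 4.74). Homer2, a scaffold protein gene, went from 2.27 to 103 and 68.0 CPM, and Ankrd36, an ankyrin repeat gene, from 1.40 to 57.3 and 45.0 CPM. Cda, which encodes cytidine deaminase, had 3 reads in the control against 34.9 and 32.7 CPM, a read ratio of 64.4 (exact 95% interval 21.9 to 314). Ikzf4, an Ikaros family transcription factor gene, had 1 read in the control against 32.6 and 22.2 CPM (read ratio 157, interval 27.9 to 6207). Arhgdig, which encodes a GDP-dissociation inhibitor of small GTPases, was at 2.09, 57.8 and 40.0 CPM. In each of these genes both tumor libraries stood at 22 CPM or more and the control below 10. EdgeR did not call Ankrd36, Ikzf4 or Arhgdig (adjusted p = 0.0505, 0.0801 and 0.0532).

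In some genes called higher than in the marrow the UVB libraries were above the control as well. Adamdec1, a metalloprotease gene of macrophages and dendritic cells, was at 0.698 CPM in the control (3 reads), 54.1 and 95.5 in the tumor libraries and 174 and 142 in the UVB libraries. Lphn3, a latrophilin adhesion receptor gene, had 1 read in the control, 20.9 and 31.7 CPM in the tumor and 56.9 and 61.2 CPM in the UVB libraries. Ccl24, a chemokine gene of the eotaxin group, had 1 read in the control and 20.8 and 35.6 CPM in the tumor libraries, and the UVB libraries at 21.4 and 10.9 CPM overlapped them. Cd300e, a monocyte receptor gene with a smaller increase, rose from 4.36 to 34.4 and 69.1 CPM in the tumor libraries and stood at 130 and 106 CPM in the UVB libraries. Both UVB libraries exceeded both tumor libraries in Adamdec1, Lphn3 and Cd300e, and of these Lphn3 was called (adjusted p = 0.0499 between the spleens). Col18a1, which encodes the collagen that yields endostatin, rose from 2.44 to 76.8 and 37.6 CPM. At 7.73 and 14.9 CPM in the UVB libraries it was called higher in the tumor than in the UVB spleens. Against the control, edgeR did not call Ccl24, Cd300e or Col18a1 (adjusted p = 0.0575, 0.0587 and 0.0663).

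**Figure D3:**
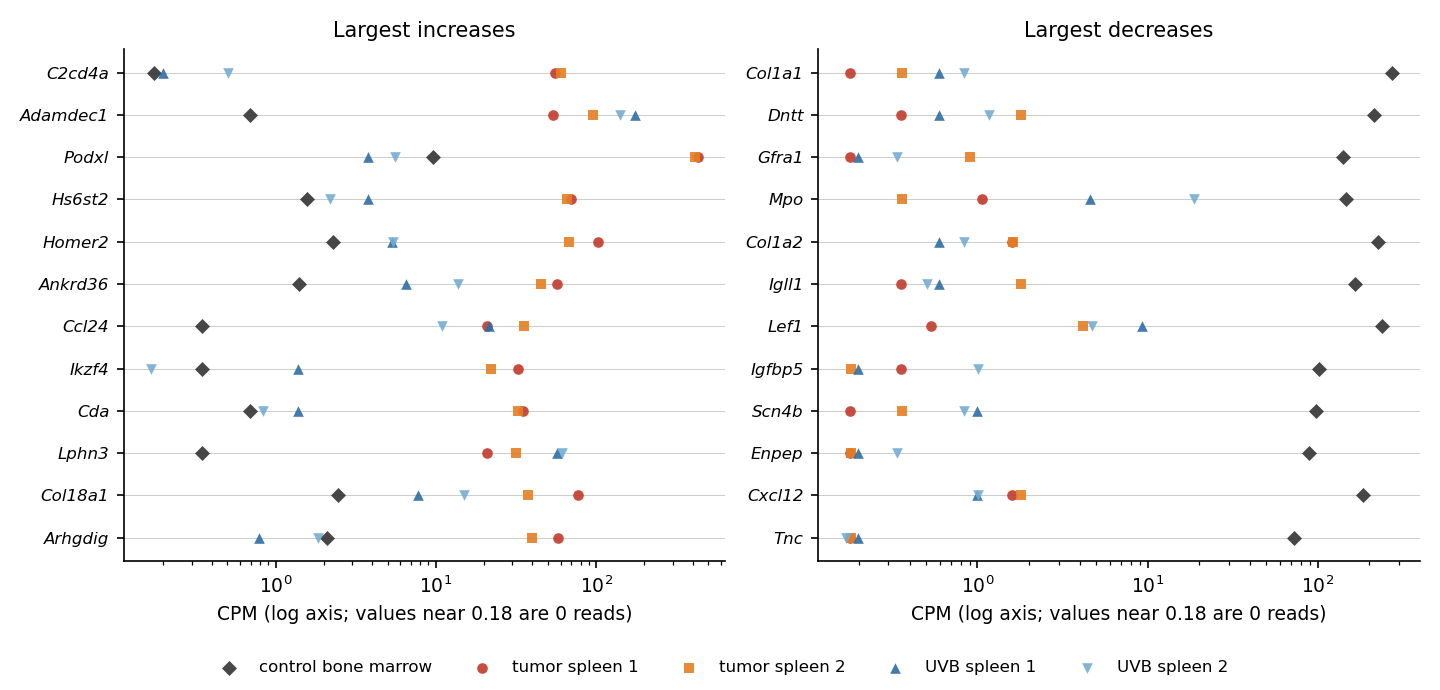
Level (CPM, log axis) in each of the 5 libraries of the 12 genes with the largest called increases (left) and the 12 with the largest called decreases (right) in the tumor libraries against the control; values near 0.18 are 0 reads. Podxl stands at 433 and 416 CPM in the tumor libraries and below 10 CPM elsewhere, whereas in the decreases the UVB libraries also lie left of the control, near the tumor libraries in most genes and further right in Mpo (4.56 and 18.8 CPM) and Lef1 (9.32 and 4.70 CPM).

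Genes downstream of the erythropoietin receptor were divided. Erythropoietin acts through Epor, Jak2 and Stat5, which switch on feedback inhibitors and survival genes. The receptor gene Epor itself was at 162 CPM in the control, 184 in tumor 1 and 151 in tumor 2, on either side of the control. Of 24 genes in this list 3 rose, Podxl, Socs3 and Osm, and 0 fell, against 1.2% and 2.59% of all genes. The median was 0.03. Without tumor 1 or tumor 2 the list had a median of 0.21 or 0.20, and edgeR called 1 gene. Socs3, a feedback inhibitor of cytokine receptors, went from 10.8 to 72.9 and 57.3 CPM (log2 fold change 2.47, SE 0.36, adjusted p = 0.0462). Osm, which encodes the cytokine oncostatin M, went from 12.2 to 61.6 and 43.8 CPM (adjusted p = 0.0473). Cish, another STAT5-induced inhibitor, was at 34.9, 197 and 127 CPM without passing the test (2.15, adjusted p = 0.102). Fam132b encodes erythroferrone, the erythroblast hormone that lowers hepcidin. It was at 28.6 CPM in the control and 283 and 211 in the tumor libraries (3.05, adjusted p = 0.104), the widest gap of the 20 iron genes. Of those 20 genes (median 0.12) 0 rose and 1 fell, Heph, at 4.01, 0.177 and 0.543 CPM, which edgeR did not call. Socs2 at 46.7, 20.05 and 23.2 CPM and Bcl2l1 at 304, 299 and 301 CPM did not follow Socs3 and Osm. Both tumor libraries were above the control in 11 of the 24 and below it in 7, and 8 had an unadjusted p under 0.05. Over all genes these shares were 39.3%, 37.9% and 24.5%. Jak2 was at 212, 210 and 174 CPM and Stat5b at 152, 147 and 144 CPM.

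Within the erythroid programme, 2 of 24 transcription factor genes rose, against 1.2% of all genes. Cited4, a transcriptional coactivator gene, was at 42.2 CPM in the control and 109 and 100 in the tumor libraries (log2 fold change 1.29, SE 0.15, adjusted p = 0.0336), and Nfia, a nuclear factor I gene, at 92.3, 217 and 194 CPM (1.15, adjusted p = 0.0367). Among 22 heme genes 1 rose, Mfsd7b (also named Flvcr1), which encodes a heme exporter, from 33.5 to 68.1 and 80.1 CPM. Pklr, the pyruvate kinase gene of red cells and liver, was the 1 gene of 22 in glycolysis to rise, from 112 to 250 and 222 CPM. EdgeR called 0 genes in these 3 lists, in which 6, 2 and 7 had an unadjusted p under 0.05, against 24.5% of all genes. Gdf3, a TGF-beta family ligand gene, was the only called gene of 23 in the BMP, TGF-beta and hedgehog list, at 7.50 CPM in the control and 75.4 and 70.5 in the tumor libraries (3.12, adjusted p = 0.0208). Smo, which transmits hedgehog signals, was at 19.9, 49.3 and 53.7 CPM and was not called (adjusted p = 0.107). The other genes of this list had mostly lower values than the control, with a median of -0.74.

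The core of red cell differentiation differed little. None of 24 red cell membrane genes, among them the anion exchanger gene Slc4a1 at 816, 835 and 806 CPM, and none of 9 globin genes were called by limma or edgeR (medians 0.04 and -0.02), and 0 and 1 of them had an unadjusted p under 0.05. The 9 globin genes summed to only 201 CPM in the control and 185 and 201 in the tumor libraries. The listed Hbb-b1 and Hbb-b2 matched no gene in the data, so this list gives no level for them. Gata1 was at 165, 214 and 173 CPM and Tal1 at 418, 564 and 458 CPM. Reads in the membrane group were dense: the median membrane gene had 0.44 reads per base of exon, and the highest value of any gene was 1.03 in the control and 1.05 and 1.14 in the tumor libraries. The markers used to check the cell type were dense as well. In the densest of the 3 libraries Tfrc had 0.73, Klf1 0.79 and Alas2 0.76 reads per base. Whether that ceiling narrowed the differences was not tested.

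Regulators and receptors of progenitors were mostly below the marrow level. Of 15 tested 1 fell and 0 rose by limma (median -1.32), against 2.59% and 1.2% of all genes. An unadjusted p was under 0.05 in 7, against 24.5% of all genes. Both tumor libraries were below the control in 12, against 37.9% of all genes. The called gene was Erg, a transcription factor gene of progenitors and endothelium, which fell from 161 to 2.31 and 4.34 CPM and was the 1 gene edgeR called. Myb, a transcription factor gene of early blood cells, was at 251, 101 and 145 CPM and Runx1 at 158, 91.9 and 94.8 CPM, neither called (adjusted p = 0.185 and 0.0567). The stem cell factor receptor gene Kit was at 89.3, 75.0 and 97.1 CPM, with the control between the tumor libraries, and Gata2, a progenitor transcription factor gene, at 8.89, 10.6 and 19.2 CPM was the 1 member in which both tumor libraries were above the control.

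Interferon-response genes were lower in the tumor libraries than in the marrow. Type I interferons act through transcription factors that include STAT2 and IRF9, which bind interferon-stimulated response elements and switch on antiviral genes. Of 30 such genes 5 fell and 0 rose, against 2.59% of all genes called lower. The median log2 fold change was -1.15, and -0.74 without tumor 1. Both tumor libraries were below the control in 28 of 30, against 37.9% of all genes. Oas2, an antiviral oligoadenylate synthetase gene, was at 49.5 CPM in the control, 6.92 in tumor 1 and 6.33 in tumor 2 (log2 fold change -2.73, SE 0.22, adjusted p = 0.0211). Xaf1, an apoptosis factor gene, was at 43.3, 8.52 and 8.32 CPM, Ifit1, which binds viral RNA, at 68.7, 25.7 and 23.7 CPM, and Rtp4, a receptor chaperone gene, at 30.5, 8.69 and 7.78 CPM. Ifi44 had 15.7 CPM in the control and 0.355 and 1.27 in the tumor libraries. These 5 genes lay far below the control in each tumor library. The transcription factor genes were lower by less and were not called, with Stat2 at 134, 69.4 and 82.1 CPM and Irf7 at 136, 83.9 and 62.4 CPM. Rsad2, the most abundant member, at 508, 450 and 526 CPM, and Isg15 at 66.6, 59.3 and 61.7 CPM stayed near the control. The count of genes called lower was 2 at a mean of at least 5 CPM, 4 with edgeR and 0 in the fit of 3 libraries.

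To show what the promoters of these genes hold, the 250 bases before each annotated start were searched on both strands for GAAA followed after any 2 bases by another GAAA, the core of the interferon-stimulated response element. It was found in 9 of the 20 list genes with a RefSeq window (45%) and in 3.44% of the 10522 tested genes with one. The windows of 4 genes are printed 5′ to 3′ on the gene's strand, with every match in capitals (on the other strand it reads TTTC, any 2 bases, TTTC, and matches may overlap). They are Ifit1 (chr19:34640639-34640888, + strand), which fell, Ifit3 (chr19:34583279-34583528, + strand) and Oas1a (chr5:120907526-120907775, - strand), which were lower without a call, and Isg15 (chr4:156200819-156201068, - strand), which stayed near the control. Coordinates are on GRCm38.p6.
Ifit1: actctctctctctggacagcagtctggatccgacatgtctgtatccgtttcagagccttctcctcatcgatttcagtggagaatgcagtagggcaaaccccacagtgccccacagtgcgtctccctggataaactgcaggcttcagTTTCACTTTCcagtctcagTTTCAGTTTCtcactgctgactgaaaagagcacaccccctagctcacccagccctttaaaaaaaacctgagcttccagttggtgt
Ifit3: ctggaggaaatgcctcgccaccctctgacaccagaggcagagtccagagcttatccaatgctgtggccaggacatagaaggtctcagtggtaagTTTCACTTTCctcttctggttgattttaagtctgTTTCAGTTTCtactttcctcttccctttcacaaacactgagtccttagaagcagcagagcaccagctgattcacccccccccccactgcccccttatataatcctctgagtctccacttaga
Oas1a: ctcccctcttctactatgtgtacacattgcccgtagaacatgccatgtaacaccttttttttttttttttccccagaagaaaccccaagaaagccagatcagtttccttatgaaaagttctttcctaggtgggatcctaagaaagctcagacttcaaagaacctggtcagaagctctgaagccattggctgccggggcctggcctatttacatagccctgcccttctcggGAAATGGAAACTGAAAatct
Isg15: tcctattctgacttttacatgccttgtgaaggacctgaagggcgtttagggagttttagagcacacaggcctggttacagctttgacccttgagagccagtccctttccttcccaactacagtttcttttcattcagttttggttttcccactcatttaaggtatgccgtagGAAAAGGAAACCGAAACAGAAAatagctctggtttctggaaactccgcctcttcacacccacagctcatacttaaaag

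Ifit1 and Ifit3 each hold 2 separate matches, Oas1a 2 that overlap within 20 bases of the start, and Isg15 3 that overlap. Ifit3 was at 15.2 CPM in the control and 1.60 and 5.25 in the tumor libraries, and Oas1a at 18.7, 9.93 and 5.43 CPM. Of the 3 called genes with a window, Ifit1 held the motif and Ifi44 and Xaf1 did not. Among ribosome biogenesis genes the E-box CACGTG, a site bound by Myc, was found in 1 of the 24 list genes with a window (4.17%), Nop2, against 9.70% of tested genes.

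**Figure D4:**
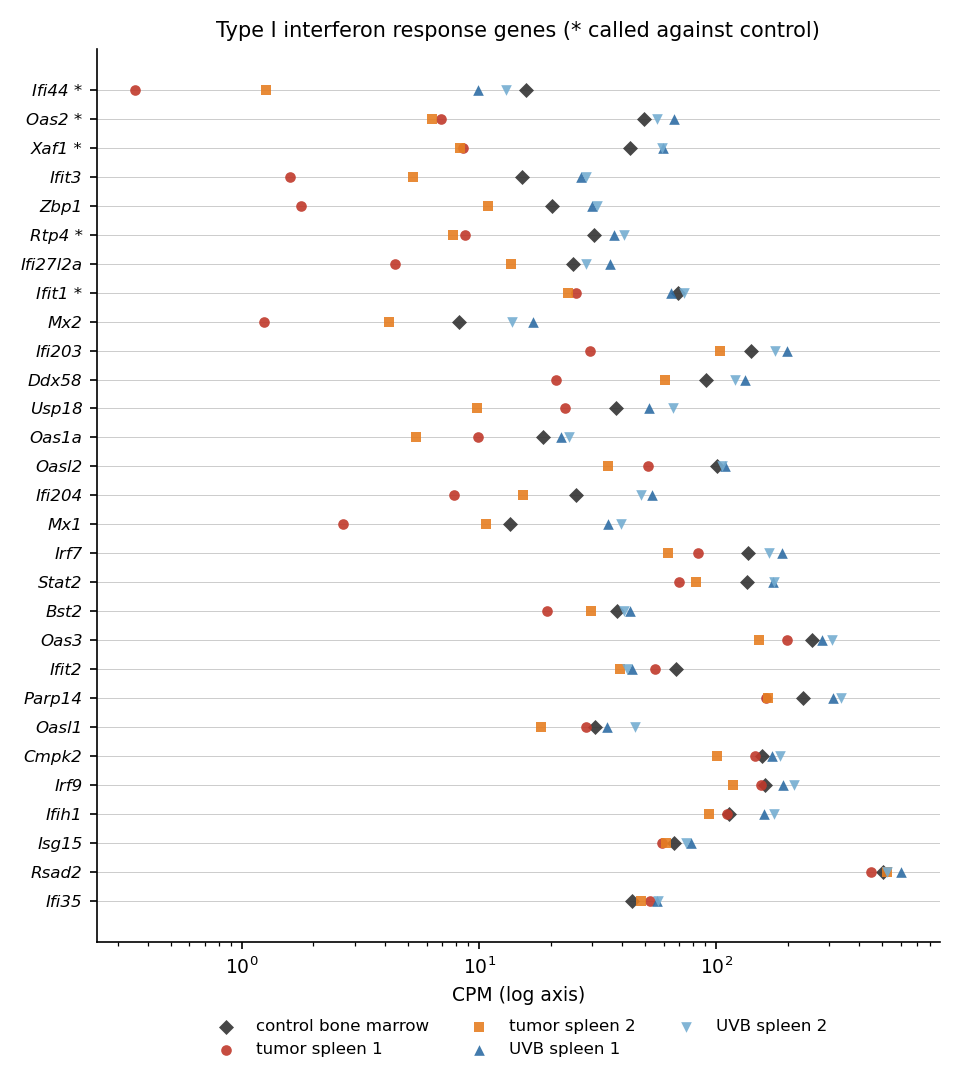
Level (CPM, log axis) of 29 of the 30 type I interferon response genes in each of the 5 libraries, ordered by the log2 fold change of tumor against control, with stars at the 5 called genes. The tumor libraries lie left of the control in most rows, by the most in Ifi44, Oas2 and Xaf1, while Isg15, Rsad2 and Ifi35 at the bottom lie close to it.

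Macrophage markers were mostly below the control, and the summed levels of mature B and dendritic cell markers lay on both sides of it. Of 18 macrophage markers 2 fell and 0 rose, against 2.59% and 1.2% of all genes. Both tumor libraries were below the control in 16, against 37.9% of all genes. An unadjusted p was under 0.05 in 6, against 24.5% of all genes. The median was -0.65, -0.31 without tumor 1 and -0.997 without tumor 2, with a summed level of 4160 CPM in the control, 1957 in tumor 1 and 2853 in tumor 2. Siglec1, the sialoadhesin gene of marrow and splenic macrophages, which is itself raised by interferon, was at 368 CPM in the control, 19.3 in tumor 1 and 33.8 in tumor 2 (log2 fold change -3.79, SE 0.34, adjusted p = 0.0234), and Vsig4, a complement receptor gene of resident macrophages, at 20.9, 0.887 and 2.35 CPM. The pan-macrophage gene Emr1, which encodes F4/80, was at 228, 107 and 203 CPM, Vcam1 at 408, 269 and 337 CPM, and C1qa at 130, 92.6 and 116 CPM. None of the 18 was at 0 reads in any of the 3 libraries. The number called lower was 1 with edgeR or at a mean of at least 5 CPM. Monocyte markers summed to 1022 CPM in the control and 582 and 966 in the tumor libraries, with 1 of 15 lower (F13a1, 50.8 to 2.66 and 2.89 CPM) and 1 higher (Cd300e). Dendritic cell markers summed to 408 CPM in the control and 264 and 455 in the tumor libraries, with 0 of 12 called by limma or edgeR or at an unadjusted p under 0.05. The part of macrophages and monocytes in the lower interferon genes was not tested.

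Antigen presentation genes were not called by limma or edgeR, and 4 of the 21 class I and 0 of the 10 class II genes had an unadjusted p under 0.05, against 24.5% of all genes. Both tumor libraries were below the control in 20 of 21 MHC class I genes (median -0.42), against 37.9% of all genes, and the class II list averaged 5.81 in the control, 5.29 in tumor 1 and 6.52 in tumor 2 on the mean log2(CPM + 1) scale. Mature B cell markers had the same order, at 6.56, 5.54 and 7.02, with the control again between the tumor libraries. The receptor gene Cr2, a marker of splenic B cells, was at 26.3 CPM in the control and 86.9 and 358 in the tumor libraries (log2 fold change 2.70, adjusted p = 0.155). Ptprc, the common leukocyte gene, was at 332, 209 and 413 CPM. Of 21 immunosuppression and checkpoint genes 2 fell, against 2.59% of all genes called lower. They were Vsig4, which edgeR did not call, and Lgals1, which encodes galectin-1 and went from 45.2 to 7.63 and 8.68 CPM.

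The largest decreases were in genes of early B cells, developing granulocytes and marrow stroma. Of 12 pro-B and pre-B cell markers 7 fell, against 2.59% of all genes, with a median log2 fold change of -4.73, or -5.50 with genes at 0 reads set to their bound. Dntt, which adds bases during antigen receptor joining, was at 215 CPM in the control, 0.355 in tumor 1 and 1.81 in tumor 2 (log2 fold change -6.79, SE 0.54, adjusted p = 0.0208). The surrogate light chain gene Igll1 was at 166, 0.355 and 1.81 CPM, and the recombinase gene Rag2 at 72.4, 0.177 and 0.723 CPM. Rag1, at 432, 0.355 and 12.1 CPM, was not called (adjusted p = 0.0823). Lef1, a Wnt pathway transcription factor gene of B precursors, went from 239 to 0.532 and 4.16 CPM, and Enpep, an aminopeptidase gene carried by B precursors, from 89.3 CPM to 0 reads in both, at least 332-fold lower. Of the 12 markers 6 were called lower with edgeR, 4 at a mean of at least 5 CPM and 0 in the fit of 3 libraries. The median was -3.95 without tumor 1 and -5.07 without tumor 2.

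Of 20 neutrophil markers 10 fell (median -4.01), against 2.59% of all genes. They included genes of the primary granules, which are made in promyelocytes. Mpo, the myeloperoxidase gene, was at 146 CPM in the control, 1.06 in tumor 1 and 0.362 in tumor 2 (log2 fold change -6.46, SE 0.83, adjusted p = 0.0372), Elane at 69.4 CPM and then 0 reads in both, and Fcnb at 51.4 CPM and 0 reads in both, at least 191-fold lower. Genes of later stages were in part called. Camp, a secondary granule gene, fell from 71.2 to 0.532 and 3.62 CPM, and Ly6g, the surface marker gene of mature neutrophils, from 9.59 to 0.355 and 0.904 CPM. Ltf, which encodes the secondary granule protein lactoferrin, at 292, 1.60 and 11.6 CPM was not called (adjusted p = 0.0599). Neither were 3 genes of mature neutrophils. S100a8 was at 55.8, 14.0 and 33.8 CPM, the chemokine receptor gene Cxcr2 at 33.0, 10.6 and 37.4 CPM and Csf3r at 85.6, 33.4 and 100.4 CPM. In Cxcr2 and Csf3r the control lay between the tumor libraries. The neutrophil count was 7 with edgeR, 2 at a mean of at least 5 CPM and 0 in the fit of 3 libraries. The median was -3.42 without tumor 1 and -4.38 without tumor 2.

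Stromal and bone lineage markers fell in 10 of 15 genes (median -2.63, or -3.19 with genes at 0 reads at their bound), and 12 of 18 collagen genes fell (median -3.03) while Col18a1 rose, against 2.59% of all genes called lower. Col1a1 was at 275 CPM in the control and at 0 reads and 1 read in tumor 1 and 2 (adjusted p = 0.0171), and Col1a2 at 227, 1.60 and 1.63 CPM. Cxcl12, the chemokine that retains blood cells in the marrow, was at 185, 1.60 and 1.81 CPM (log2 fold change -6.10, SE 0.27, adjusted p = 0.0171). The bone matrix gene Ibsp was at 27.2 CPM and then 0 reads in both, at least 101-fold lower, and Tnc, which encodes the matrix protein tenascin C, at 72.4 CPM and then 0 reads in both, at least 269-fold lower. Col4a1, a basement membrane collagen gene, was at 51.3, 28.6 and 31.8 CPM and was not called. Of 10 GDNF family genes 6 were tested and 4 fell, among them the receptor genes Gfra1 (141, 0.177 and 0.904 CPM) and Ret (13.3, 0.177 and 0.362 CPM). Endothelial markers fell in 1 of 15 genes, Emcn, which edgeR did not call. With edgeR 5 stromal, 5 collagen and 2 GDNF family genes were called lower, and at a mean of at least 5 CPM limma called 4, 2 and 1. In the fit of 3 libraries limma called 0 in each of these lists. The stromal median was -4.83 with edgeR, and the collagen median -5.63 with edgeR and -1.18 at a mean of at least 5 CPM. With no filter on low values the stromal median was -2.17, and the GDNF family median was -0.61 against -3.26 in the main test. The filter took the mean over 5 libraries, so genes high in the control alone could pass it. Ibsp and Tnc did so, with 0 reads in every spleen library. Of 22 stromal markers 15 passed. The part of marrow cells carried along by the beads in these decreases was not tested.

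**Figure D5:**
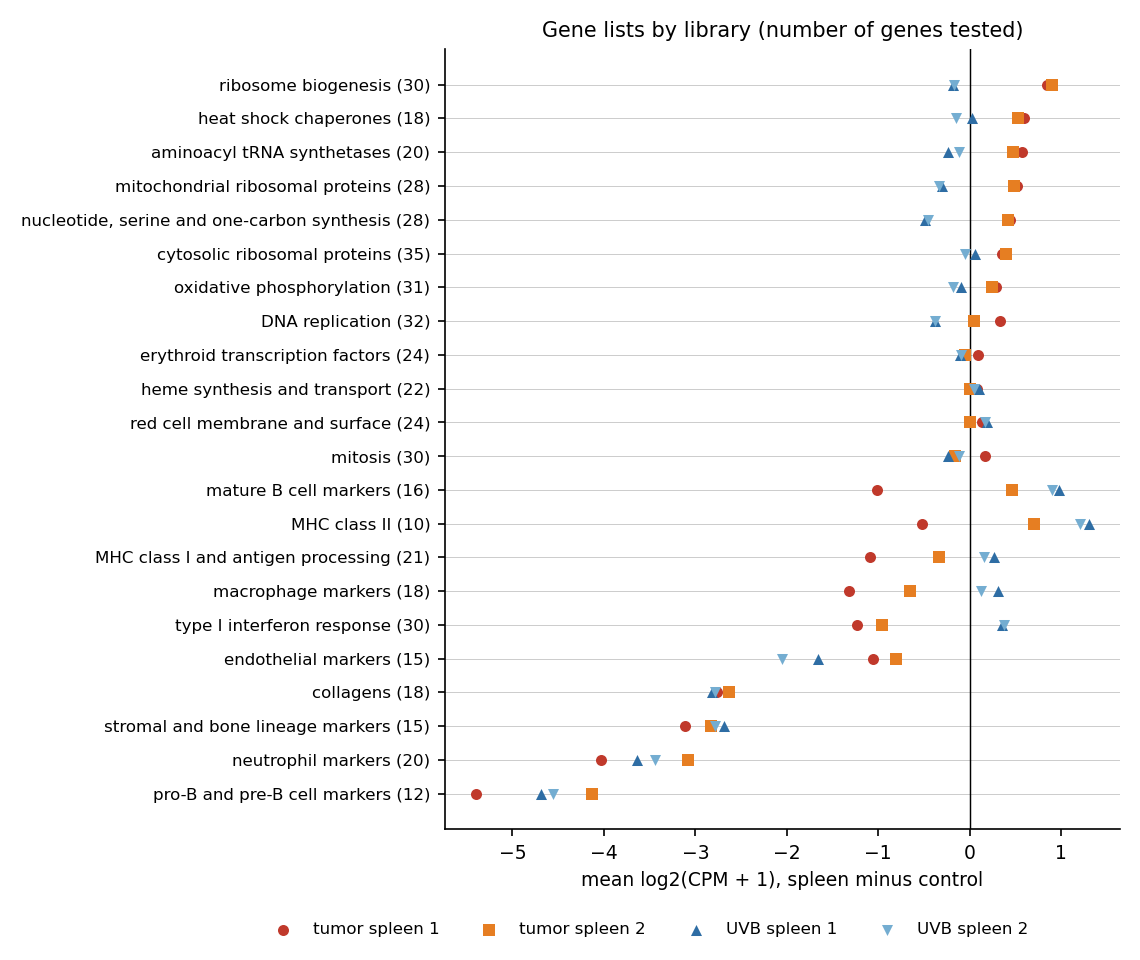
Mean log2(CPM + 1) over the tested genes of 22 lists in each spleen library, less the same mean in the control library (horizontal axis, 0 is the control); the number of genes tested is in brackets. Ribosome biogenesis lies highest in both tumor libraries, pro-B and pre-B cell markers lie lowest, and the tumor libraries part most in the mature B cell, pro-B and pre-B cell and MHC class II lists.

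The tumor libraries differed from each other mostly in one direction. Of the genes tested 1703 were more than 2-fold apart on the log2(CPM + 1) scale, against 278 between the UVB libraries. Tumor 1 was the lower one in 1608 (10.7%) and the higher one in 95 (0.633%). The widest gaps with tumor 2 higher were in Rag1 (0.355 and 12.1 CPM), Csf1, the macrophage growth factor gene (2.84 and 30.6), Ppl (1.06 and 15.2), S1pr3, a lipid receptor gene (10.1 and 71.8), and Irg1, an enzyme gene of activated macrophages (0.887 and 11.2). With tumor 1 higher they were in Adam33 (11.2 and 2.17 CPM), Map1a (13.3 and 2.89), Slc15a2 (68.1 and 19.5), Lama5 (38.1 and 11.03) and Naaladl1 (10.8 and 3.07). None of these 10 genes was called against the control. They were picked for a wide gap between the tumor libraries. That gap adds to the spread used in the test, so the lack of calls largely follows from the choice. Between tumor 1 and 2, 18 of the 569 called genes were over 2-fold apart, against 1703 of the 15006 tested. The test limits this count in the same way.

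The tumor libraries were also set against the UVB libraries, which share the spleen and differ in the treatment. This contrast shares the tumor libraries with the one against marrow, so the values stand side by side. It called 2557 genes (17%), 1852 higher (12.3%) and 705 lower (4.7%) in the tumor libraries. Of the 180 genes higher than in marrow, 165 were also called higher than in UVB spleens (1.1% of genes tested), 3 were lower and 12 were not called. Of the 389 lower than in marrow, 53 were also lower than in UVB spleens (0.353%), 6 were higher and 330 were not called. Podxl was at 3.77 and 5.54 CPM in the UVB libraries, below the control as well as the tumor libraries (log2 difference tumor minus UVB 6.25, adjusted p = 0.02). Fam124a went from 2.44 CPM in marrow to 56.8 and 44.3 CPM in tumor spleens and had 0 reads in both UVB libraries. Ano1, a calcium-activated chloride channel gene, went from 1.74 to 33.9 and 33.3 CPM, with 0 reads and 1 read in the UVB libraries.

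By list, 29 of 30 ribosome biogenesis genes and 18 of 28 nucleotide, serine and one-carbon genes were called higher in tumor than in UVB spleens, as were 23 of 28 mitochondrial ribosomal protein, 15 of 20 aminoacyl tRNA synthetase and 14 of 32 DNA replication genes, against 12.3% of all genes. Of the interferon genes 16 of 30 were called lower, against 4.7%, with Oas2 at 66.2 and 56.2 CPM in the UVB libraries and Siglec1 at 162 and 177 CPM. The summed macrophage markers were 5188 and 4563 CPM in the UVB libraries against 1957 and 2853 in the tumor libraries, and 7 of 18 were called lower. Kit and Gata2, not called against the control, were called higher than in UVB spleens, where Kit was at 38.1 and 24.3 CPM and Gata2 at 2.38 and 1.17 CPM (adjusted p = 0.0365 and 0.0314). In contrast, 0 of 12 pro-B and pre-B cell markers and 0 of 20 neutrophil markers were called between the spleens by limma (0 and 6 at an unadjusted p under 0.05, against 42.2% of all genes), and Col1a1 (0.595 and 0.839 CPM) and Dntt (0.595 and 1.17 CPM) were as low in the UVB as in the tumor libraries. With UVB 1 or UVB 2 left out this contrast called 0 genes (2432 and 2683 at an unadjusted p under 0.05). The count was 5694 when tumor 1 was left out and 7888 when tumor 2 was.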

How the data were processed

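Alignment and counting used STAR and HTSeq on mm10, per the submitters' processing notes; versions, annotation, strand setting and duplicate handling were not given in the sources used here. The authors deposited CPM for 39179 genes, with 1 read added to every gene before scaling, as the values show: whole reads were recovered for 100% of values (relative tolerance 1e-06). No result uses the log2 fold changes the authors deposited.

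Genes averaging at least 1 CPM were fitted with limma 3.58.1 (R 4.3.3) on log2(CPM + 1) in 1 model of the 5 libraries, which left 2 residual degrees of freedom and gave the single control the spread of the spleen groups. Fold changes understate the change of low genes. A permutation of 2 against 1 libraries cannot reach the threshold. edgeR 4.0.16 and DESeq2 1.42.0 on the recovered reads were alternatives: edgeR called 192 genes and DESeq2 698. The limma step was also run on simulated data in which all 5 libraries shared 1 spread. The tumor libraries differed more from each other than the UVB libraries did, so that run does not bear on the calls. Fold bounds took 3 reads per group as the floor, and read ratios have exact 95% intervals, which cover counting error only, as reads are not independent molecules.

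Members and the 50 gene lists (1016 of 1025 entries matched) were chosen with earlier results of these data known. Named genes were, for each direction, the 12 called genes with the largest change, 10 CPM or more in the higher group and groups that do not overlap (predicted models, pseudogenes and receptor segments left out), up to 2 called members of each list by p, 14 panel genes, the 5 largest in each direction of those also called against UVB, and the 5 widest gaps in each direction between the tumor libraries. Further list members were picked for their roles, some after their values were seen. Positions come from GENCODE M21 (GRCm38), which held 37693 of the identifiers. Promoter windows come from RefSeq. Some genes are not reported here.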

Additional observations from a re-analysis of the deposited data

Results flagged for a closer look

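Of the genes named, 35 differed between tumor and UVB spleens at an adjusted p under 0.05 in limma's test, so that their difference from the control was not the same in both spleen groups. Each value is the log2(CPM + 1) difference, tumor minus UVB, with 2 libraries a group. The contrast called 17% of all genes, and most of these genes were named from those called against the control, by size of change or by p within a list. C2cd4a, Podxl, Arhgdig, Fam124a, Ano1, Oas2, Xaf1, Siglec1, Ifi44 and Col14a1 were also picked for their tumor minus UVB difference among genes called in both contrasts. Their flag was therefore fixed by that choice.

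Among the largest increases over the marrow the difference was 6.25 for Podxl, 5.46 for C2cd4a, 4.44 for Arhgdig, 4.14 for Hs6st2, 4.07 for Ikzf4, 4.05 for Cda, 3.73 for Homer2, 2.30 for Ankrd36 and 2.22 for Col18a1. It was -1.17 for Lphn3, which was higher in the UVB spleens, with an adjusted p (0.0499) at the threshold. Fam124a (5.43) and Ano1 (4.77) were at or near 0 reads in the UVB libraries.

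Growth and erythroid genes differed by 1.81 for Rrp12, 1.15 for Polr1a, 1.75 for Cad, 1.61 for Ppat, 0.79 for the co-chaperone gene Bag3, 1.69 for Pklr, 2.14 for Cited4, 1.76 for Nfia, 1.62 for Socs3 and 3.88 for Gdf3. Kit (1.46) and Gata2 (2.50) were flagged although neither was called against the control.

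Lower in tumor than in UVB spleens were Oas2 (-3.02), Xaf1 (-2.68), Ifi44 (-2.81), Siglec1 (-2.68), Vsig4 (-1.66), F13a1 (-1.29), Lgals1 (-1.20), Gfra4 (-1.77), Trp53inp1 (-0.99) and Col14a1 (-2.80), a fibril-associated collagen gene with 253 CPM in the control against 28.6 and 45.6 in the tumor and 280 and 237 in the UVB libraries. Lama5, a laminin gene, was higher by 3.31, with the tumor libraries themselves at 38.1 and 11.03 CPM.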

How the results depend on the processing

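Against 569 genes called for tumor against control, limma called 232 with a pseudocount of 0.25 CPM, 2303 with no filter on low values, 70 at a mean of at least 5 CPM and 0 with only the control and tumor libraries, and edgeR called 192. With 1 library left out the count ranged from 0 (without either UVB library) to 5383 (without tumor 2), and for tumor against UVB from 0 to 7888. The count was 570 with TMM scaling, 602 with DESeq2 size factors and 698 with DESeq2, of which 551, 558 and 388 were among the 569. For tumor against UVB DESeq2 called 2515 genes, of which 1131 were higher, against 1852 of 2557 in the main test.

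Of 61 named genes called against the control, 44 were still called with a pseudocount of 0.25 CPM, 60 with no filter, 33 of 54 at a mean of at least 5 CPM, 39 with edgeR, 58 with DESeq2, and 0 without a UVB library or with 3 libraries. None of the 61 changed direction in any setting run. In each called gene both tumor libraries lay on the same side of the control, so leaving out a library could not turn it. The direction turned in 8 named genes that were not called. Without tumor 1 and without tumor 2 the values were -0.099 and 0.19 for Epor, 0.12 and -0.25 for Kit, 0.31 and -0.67 for Ptprc, -0.64 and 1.24 for Map1a, 0.53 and -2.51 for Csf1, 1.09 and -1.89 for Ppl, 2.67 and -0.045 for S1pr3, and 1.98 and -0.71 for Irg1. Ppl was also above the control with edgeR (0.27) and DESeq2 (0.26). With 1 tumor library left the only spread in the fit was that of the UVB libraries. Calls from those fits do not show how firm a change is and are left out for these genes. In each of the 8 the control lay between the tumor libraries.

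The control carries no replicate number. For tumor against UVB, with replicate block and 4 spleen libraries, limma called 0 genes (5502 at unadjusted p under 0.05), and with the pairing crossed, an alternative chosen after seeing the data, 3049. The replicate differences of the 2 groups correlated at -0.11 across genes, so the numbers do not establish a pairing. Depth limits genes of a few CPM, where 1 read is 0.168 to 0.198 CPM.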
